A study of Mus musculus with 24 samples.

Results

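Cholesterol genes were followed in the brains of mice on 4 diets. The group comprises the genes for the enzymes that make cholesterol, the proteins that control these enzymes, and the proteins that move, export or degrade cholesterol. Of 32 such genes, 29 were measured, out of 11645 genes measured in all. They are 17 of 18 genes of synthesis, all 4 genes of control and 8 of 10 genes of transport and handling. For each gene the probe set that the platform annotation assigns to that gene alone was used, and where a gene had several, the one with the highest mean over the 24 arrays. Acat2, Nr1h2 and Soat1 were not analysed here because that annotation names no probe set for them. All 29 measured genes passed the filter on low levels, which was set on the mean over all 24 arrays, a mean log2 level of 4.07.

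The mice were females of the strain labelled NMR-1, aged 8 weeks at the start, and ate 1 diet for 2 weeks. The 6 Chimpanzee mice ate the fruit, vegetables and yogurt given to chimpanzees in an ape facility. The 6 HumanCafe mice ate cooked cafeteria food, the 6 FastFood mice ate fast food only, and the 6 Pellet mice stayed on the mouse pellets that all groups had been raised on. Total RNA of the right cerebral hemisphere was hybridised to 1 array per mouse, in 2 labelled batches with 3 mice of each diet in each. The design asks whether human and chimpanzee diets, or diets differing in other ways, change expression, and mice in place of primates are its limit as a model.

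Cells make cholesterol from acetyl-CoA through mevalonate, squalene and lanosterol. The transcription factor encoded by Srebf2 turns on the enzymes of this pathway when sterols are scarce: Scap escorts it out of the endoplasmic reticulum, and the Insig proteins hold the complex back when sterols are plentiful. Lipoprotein cholesterol from the blood hardly crosses the blood-brain barrier, so the brain makes its own, much of it for myelin, hands it from astrocytes to neurons on apolipoprotein E, and disposes of the surplus as a hydroxylated sterol made by Cyp46a1.

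The start of a gene is where this control acts. The stretches shown here are from 6 of the 8 genes that were lower in batch 1 than in batch 2 both on the deposited values and after the arrays had been brought to a common distribution (Sqle and Npc1 are not shown). Each holds the 150 bases before the start site, from RefSeq on GRCm38.p6, written 5' to 3' on the strand of the gene. Capitals mark a match to a sterol regulatory element (TCACNCCAC, where N is any base) or to a CCAAT box (CCAAT), each searched on both strands, so that ATTGG is a CCAAT box on the other strand. None of these matches overlap.
Hmgcs1 (chr13:119690201-119690350, plus strand): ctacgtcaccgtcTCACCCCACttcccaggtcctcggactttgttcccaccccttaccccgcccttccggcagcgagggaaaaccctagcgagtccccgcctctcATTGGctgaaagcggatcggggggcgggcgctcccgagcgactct
Idi1 (chr13:8885456-8885605, plus strand): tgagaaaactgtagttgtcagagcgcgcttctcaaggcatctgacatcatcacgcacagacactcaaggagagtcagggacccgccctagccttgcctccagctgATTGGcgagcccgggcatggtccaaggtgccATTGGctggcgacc
Cyp51 (chr5:4104698-4104847, minus strand): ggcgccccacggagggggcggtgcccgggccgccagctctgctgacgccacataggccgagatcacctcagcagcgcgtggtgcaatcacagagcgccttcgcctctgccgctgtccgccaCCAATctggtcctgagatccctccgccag
Msmo1 (chr8:64733579-64733728, minus strand): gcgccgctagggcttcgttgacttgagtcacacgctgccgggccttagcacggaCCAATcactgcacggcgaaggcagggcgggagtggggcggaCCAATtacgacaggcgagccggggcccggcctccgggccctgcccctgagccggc
Sc5d (chr9:42264301-42264450, minus strand): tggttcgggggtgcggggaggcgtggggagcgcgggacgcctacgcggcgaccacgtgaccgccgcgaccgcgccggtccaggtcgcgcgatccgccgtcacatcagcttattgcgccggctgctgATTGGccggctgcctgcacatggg
Insig1 (chr5:28071262-28071411, plus strand): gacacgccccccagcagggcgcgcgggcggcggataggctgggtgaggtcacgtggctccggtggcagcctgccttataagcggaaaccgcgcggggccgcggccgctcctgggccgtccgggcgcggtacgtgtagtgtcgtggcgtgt
Promoter entries (250 bases before the start site to 50 bases after it) were at hand for 26 of the 32 genes, in 34 windows. The sterol element was found in 1.24% of all 32851 windows and in 1 of these 34, that of Hmgcs1, which has it at 137 to 129 bases before the start. The CCAAT box was found in 37.4% of all windows and in 20 of the 34. Counted by gene, 14 of the 15 synthesis genes with an entry held at least 1, a count that has no share over all genes beside it. A GC box (GGGCGG), not marked here, was found in 35.7% of all windows, in 26 of the 34 and in 14 of those 15 genes, again with no share over all genes. Idi1 and Msmo1 each have a pair of CCAAT boxes in the printed stretch. That of Insig1 holds neither the sterol element nor the CCAAT box, which says only that these letters are not in it.

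The 24 arrays were not equally comparable, and this touches every result on the pellet diet. The SD of the log2 values within an array was 1.81 to 2.06 on 23 arrays and 1.58 on Pellet batch 2 replicate 1, whose median correlation with the other arrays was 0.893. On the other diets the signal of 18S ribosomal RNA was 5.87 to 6.58 in batch 1 and 4.88 to 5.15 in batch 2 (9 arrays each). On the pellet diet it was 4.96 to 5.51 on the 3 arrays of batch 1 and 5.92 to 6.42 on the 3 of batch 2, so that the pellet arrays lay the opposite way round. The tissue label was borne out by its markers. The mean log2 level of 6 neuron genes was 9.90 to 11.05 on the 18 arrays of the other diets, that of 7 oligodendrocyte and myelin genes 8.88 to 10.02, and that of 6 astrocyte genes 8.60 to 9.53. Because whole tissue was used, fewer cells of a type and less RNA per cell cannot be told apart.

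**Figure D1:**
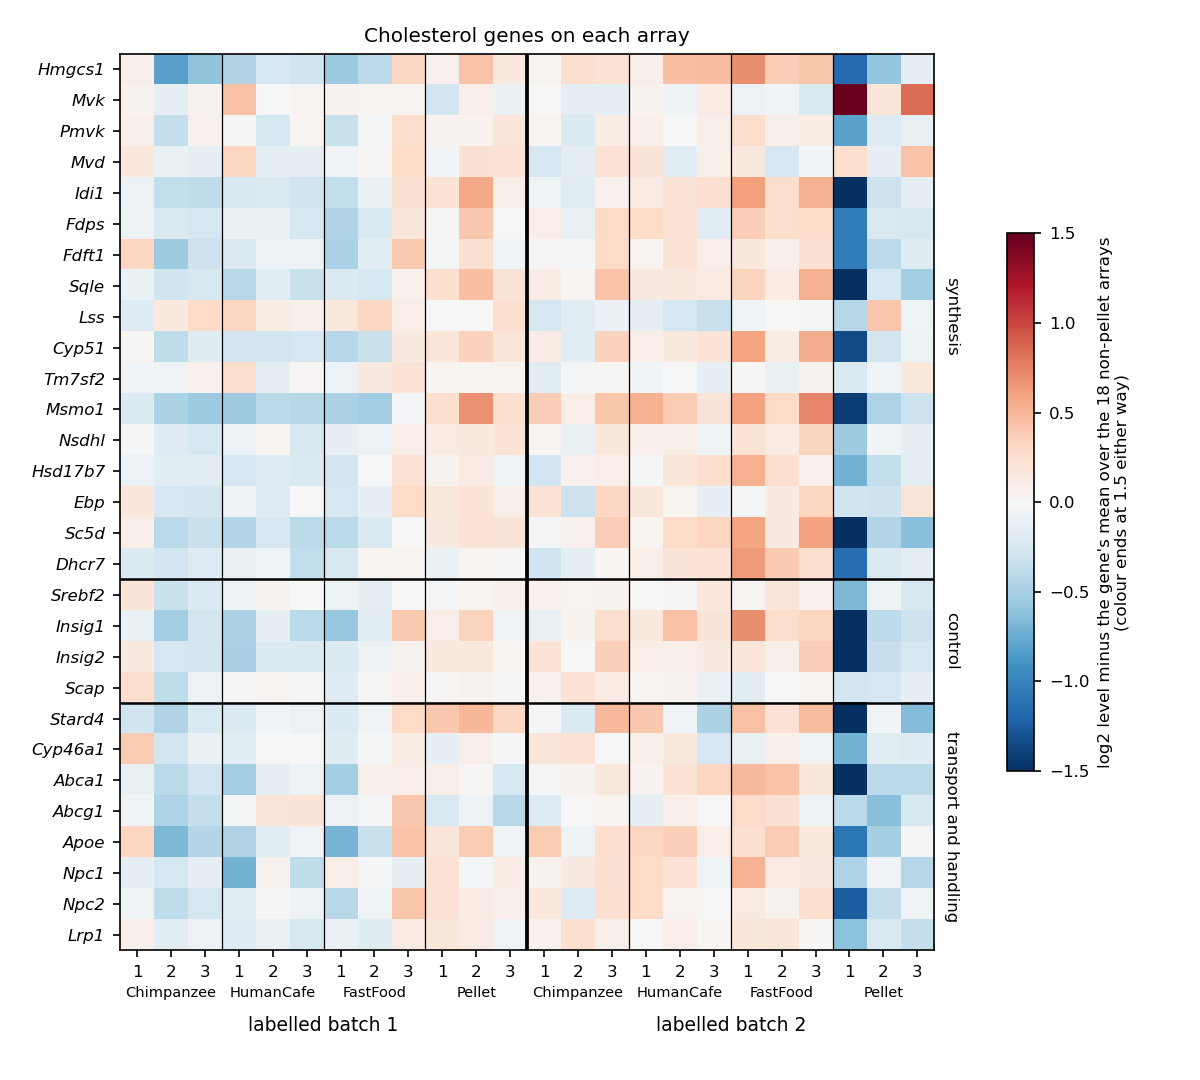
Log2 level of each of the 29 cholesterol genes on each of the 24 arrays, as the difference from the gene's mean over the 18 arrays of the 3 diets other than Pellet (colour scale, which ends at 1.5 either way). Columns are arrays by labelled batch, diet and replicate number, and rows are ordered by role. Most genes were lower in batch 1 than in batch 2 on Chimpanzee, HumanCafe and FastFood, the pellet arrays ran the other way, and Pellet batch 2 replicate 1 was the lowest pellet array for 25 of the 29 genes, with Mvk at 7.58 as an exception.

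No cholesterol gene passed the test for diet. By limma with batch as a term, 0 of the 29 genes had a Benjamini-Hochberg adjusted p under 0.05 in the test of the 4 diets or in any of 8 comparisons between diets. Over all 13839 features the share called was 0.0434% for the 4 diets, 0.0361% for Pellet against FastFood, 0.00723% for Pellet against Chimpanzee and 0% for the other 6 comparisons. At an unadjusted p under 0.05 the 4 diets gave 1 of 29 genes beside 5.34% of all features, Pellet minus FastFood gave 5 beside 21.5% and FastFood minus Chimpanzee gave 2 beside 1.82%. The human diets together against Chimpanzee gave 1 beside 2%, Pellet minus Chimpanzee 1 beside 9.73% and Pellet minus HumanCafe 1 beside 5.47%. None were found for FastFood against the mean of HumanCafe and Chimpanzee (1.17%), FastFood minus HumanCafe (0.658%) or HumanCafe minus Chimpanzee (1.42%). The methods' two-way test, at its own threshold of an unadjusted p under 0.01, called Dhcr7 for FastFood minus Chimpanzee (1.17% of features kept) and for the human diets against Chimpanzee (1.28%), Idi1 and Dhcr7 for FastFood against the mean of HumanCafe and Chimpanzee (1.63%), and Abcg1 for the 4 diets (2.09%), Pellet minus HumanCafe (0.696%) and Pellet minus FastFood (1.58%). Its filter on the interaction had removed 18 to 22 of the 29 genes in the test of the 4 diets and those of Pellet, and 0 in the others. After Benjamini-Hochberg adjustment that test, which takes its error from the arrays of the compared diets alone, called 0 genes. These comparisons share arrays, so that their values stand side by side and are not independent.

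Between the fast food and chimpanzee diets the differences of the synthesis genes pointed in 1 direction, but the ranges of their array means overlapped. All 17 synthesis genes were on the higher side on FastFood, by 0.016 to 0.37 on the log2 scale with a median of 0.13, where 60.3% of all features were above 0 and their median was 0.028. No single one passed the test. The mean of the 17 genes on an array was 6.76 to 7.23 on Chimpanzee and 6.78 to 7.38 on FastFood. These ranges also overlapped within each batch. The 17 genes were read on the same arrays and are not 17 replicates. In batch 1, 16 of the 17 were above 0 (median 0.092) beside 64.7% of all features, and in batch 2 also 16 (median 0.19) beside 53.3%. The 7 measured oligodendrocyte and myelin genes were above 0 as well, with a median of 0.27. Of 6 astrocyte genes 5 were above 0 (median 0.13, highest 0.63), and 1 of them had an unadjusted p under 0.05. The medians were 0.019 over 6 neuron genes (4 above 0), 0.14 over 5 microglia genes (3 above 0), 0.020 over 2 endothelial genes (1 above 0) and 0.097 over 3 choroid plexus genes (all above 0), and the 1 blood gene was at -0.66. None of these markers passed the test. Their part in the differences of the cholesterol genes was not tested. HumanCafe lay between, with a median of 0.031 against Chimpanzee (13 of 17 above 0, beside 45.9% of all features), and FastFood minus HumanCafe had a median of 0.12 (15 of 17, beside 68%). After quantile normalization, which gives every array the same distribution, the median for FastFood against Chimpanzee was 0.084, with 16 of 17 above 0. It was 0.066 on the deposited values without FastFood batch 2 replicate 1 and 0.20 without FastFood batch 1 replicate 1.

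Among the early enzymes, Hmgcs1 makes the precursor of mevalonate. Its log2 level ran from 9.57 to 10.63 on Chimpanzee (median 10.45), from 9.94 to 10.85 on HumanCafe (10.29), from 9.83 to 11.09 on FastFood (10.73) and from 9.22 to 10.81 on Pellet (10.35). The 4 ranges overlapped, and FastFood minus Chimpanzee was 0.28 ± 0.25 (SE). Idi1, which isomerises the isoprene unit, ran from 6.40 to 6.84 on Chimpanzee (median 6.66), from 6.48 to 7.04 on HumanCafe (6.73), from 6.42 to 7.40 on FastFood (7.03) and from 5.14 to 7.34 on Pellet (6.75). Its difference between FastFood and Chimpanzee was 0.36 ± 0.25, an error that takes in the pellet arrays, where the SD within diet and batch was 0.17. Sqle, the squalene epoxidase, ran from 7.21 to 7.94 on Chimpanzee (median 7.47), from 7.09 to 7.65 on HumanCafe (7.49), from 7.25 to 8.04 on FastFood (7.61) and from 5.80 to 7.96 on Pellet (7.47). The low end of the pellet range of Idi1 and Sqle is the same array, Pellet batch 2 replicate 1.

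Of the late enzymes, Cyp51 removes a methyl group from lanosterol. It ran from 6.34 to 7.05 on Chimpanzee (median 6.63), from 6.43 to 6.92 on HumanCafe (6.64), from 6.29 to 7.30 on FastFood (6.83) and from 5.37 to 7.06 on Pellet (6.77). Dhcr7, which makes cholesterol from its immediate precursor in one branch of the pathway, ran from 6.09 to 6.42 on Chimpanzee (median 6.19), from 6.03 to 6.60 on HumanCafe (6.41), from 6.16 to 7.04 on FastFood (6.54) and from 5.25 to 6.42 on Pellet (6.27). For Dhcr7, the FastFood arrays of batch 2 (7.04, 6.79 and 6.65) all lay above the Chimpanzee arrays of that batch (6.09, 6.26 and 6.42), whereas in batch 1 the diets overlapped. The difference between FastFood and Chimpanzee was 0.37 ± 0.17, with an unadjusted p of 0.036 (adjusted p = 1.00, limma), and was 0.17 in batch 1 and 0.57 in batch 2. It passed the threshold only where limma was allowed to weight the arrays, a setting in which 1.04% of all features were called. In batch 2, 6 of the 29 genes (Hmgcs1, Idi1, Lss, Dhcr7, Insig1 and Abca1) were higher on every FastFood than on every Chimpanzee array, against 11.5% of all features, and in batch 1 it was 2 genes (Stard4 and Npc1) against 3.69%. The other way round, 1 gene (Scap) was lower on every FastFood array in batch 2, against 7.49%, and 0 were in batch 1, against 1.55%.

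**Figure D2:**
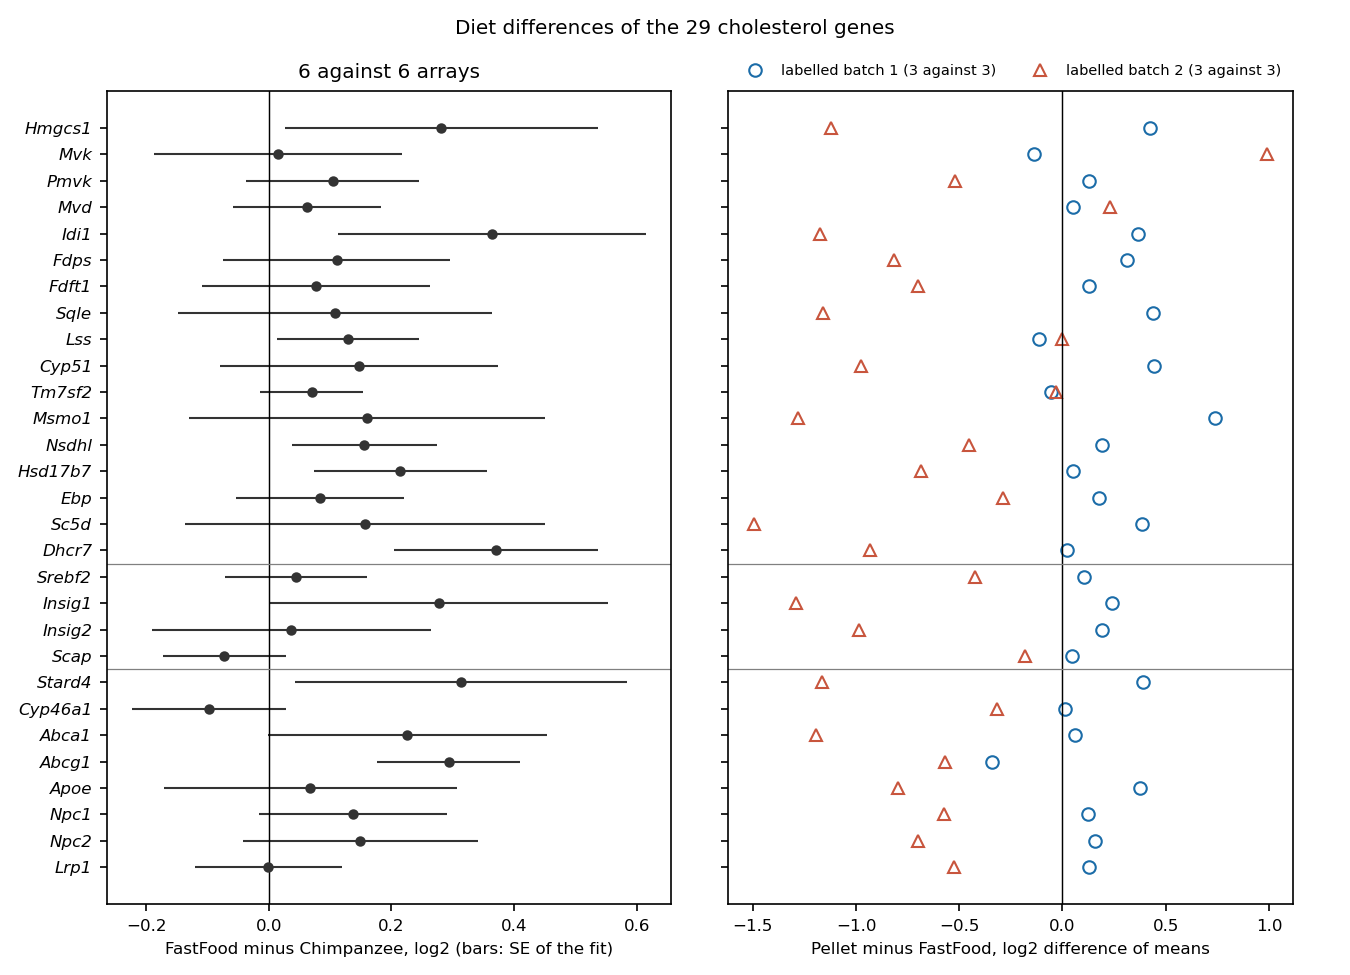
Differences of the 29 cholesterol genes between diets on the log2 scale. The left panel shows FastFood minus Chimpanzee over 6 and 6 arrays with the standard error of the fit, and the right panel shows Pellet minus FastFood in labelled batch 1 (circles) and labelled batch 2 (triangles), 3 arrays per diet in each, without error bars. The synthesis genes in the upper block lie to the right of 0 on the left, and on the right most genes lie above 0 in batch 1 and below 0 in batch 2, with Abcg1 below 0 in both.

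Of the 4 control genes 0 passed the test for diet, and over both batches the diet ranges of the 2 shown here overlapped. Srebf2 ran from 7.66 to 8.18 on Chimpanzee (median 8.04), from 7.92 to 8.15 on HumanCafe (8.00), from 7.85 to 8.17 on FastFood (8.01) and from 7.32 to 8.07 on Pellet (7.95). Insig1, itself a target of the Srebf2 product, ran from 6.26 to 7.03 on Chimpanzee (median 6.68), from 6.31 to 7.22 on HumanCafe (6.79), from 6.21 to 7.49 on FastFood (7.08) and from 4.91 to 7.12 on Pellet (6.61). FastFood minus Chimpanzee was 0.28 ± 0.28 for Insig1 and 0.05 ± 0.12 for Srebf2. Over the 4 control genes the median of this difference was 0.04, with 3 of 4 above 0.

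Of the genes of transport and handling, Abcg1 gave the smallest p of all 29 genes in the test of the 4 diets on the deposited values. It encodes a transporter that passes cholesterol from cells to lipoproteins, and lies on chromosome 17 (chr17:31057694-31117984, GRCm38). Its log2 level ran from 7.38 to 7.87 on Chimpanzee (median 7.73), from 7.71 to 8.04 on HumanCafe (7.88), from 7.75 to 8.25 on FastFood (7.95) and from 7.21 to 7.75 on Pellet (7.52). The highest Pellet array (7.750) lay just under the lowest FastFood array (7.753), and 0.527% of all features were lower on every Pellet than on every FastFood array. On Pellet it was lower than on FastFood by 0.46 ± 0.12, as a difference on the log2 scale, with an unadjusted p of 0.00069 and an adjusted p of 0.22. The difference was -0.34 among the batch 1 arrays and -0.57 among those of batch 2, where 25.4% of all features had 1 sign in both. Pellet minus HumanCafe was -0.38 ± 0.12 (adjusted p = 0.59, limma), with -0.36 and -0.40 in the batches. The unadjusted p for the 4 diets was 0.0026 (adjusted p = 0.68). After quantile normalization it was 0.14, and those of Nsdhl (0.048), Hmgcs1 (0.059), Dhcr7 (0.066), Abca1 (0.089) and Mvk (0.14) were smaller. Pellet minus FastFood was then -0.20 ± 0.13 for Abcg1 (adjusted p = 0.30, limma).

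This pattern held on 1 probe set alone. A second probe set of Abcg1, with a mean log2 level of 4.89 against 7.76, gave 0.10 ± 0.08 for Pellet minus FastFood, and for FastFood minus Chimpanzee it gave -0.18 where the first gave 0.29. Without Pellet batch 2 replicate 1, Pellet minus FastFood was -0.44 ± 0.12 (adjusted p = 0.33, limma). Abcg1 did pass with the pellet batch labels exchanged (adjusted p = 0.033), with array weights (adjusted p = 0.005) and in labelled batch 2 alone (adjusted p = 0.010), in settings that called 12.3%, 8.27% and 58.7% of all features. Over 39 alternatives its adjusted p ranged from 0.0046 to 0.45.

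None of the other transport genes passed the test for diet. Abca1, which loads cholesterol onto apolipoproteins, ran from 7.55 to 8.12 on Chimpanzee (median 7.89), from 7.43 to 8.28 on HumanCafe (7.95), from 7.45 to 8.44 on FastFood (8.09) and from 6.26 to 8.05 on Pellet (7.63). On Pellet it had the largest difference below FastFood of the 29 genes, -0.57 ± 0.23, with an unadjusted p of 0.020 (adjusted p = 0.23, limma). Batch 1 gave 0.058 and batch 2 gave -1.20, and the value over both was -0.29 ± 0.15 without Pellet batch 2 replicate 1. Apoe, the carrier made by astrocytes, ran from 10.55 to 11.61 on Chimpanzee (median 11.31), from 10.77 to 11.58 on HumanCafe (11.25), from 10.52 to 11.66 on FastFood (11.42) and from 10.15 to 11.61 on Pellet (11.18). Cyp46a1 ran from 7.85 to 8.52 on Chimpanzee (median 8.24), from 7.89 to 8.29 on HumanCafe (8.14), from 7.96 to 8.26 on FastFood (8.10) and from 7.44 to 8.23 on Pellet (8.01). Cyp46a1 was one of 3 genes on the lower side for FastFood minus Chimpanzee, at -0.10 ± 0.12. Over the 8 transport genes the median of this difference was 0.14, with 6 of 8 above 0.

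**Figure D3:**
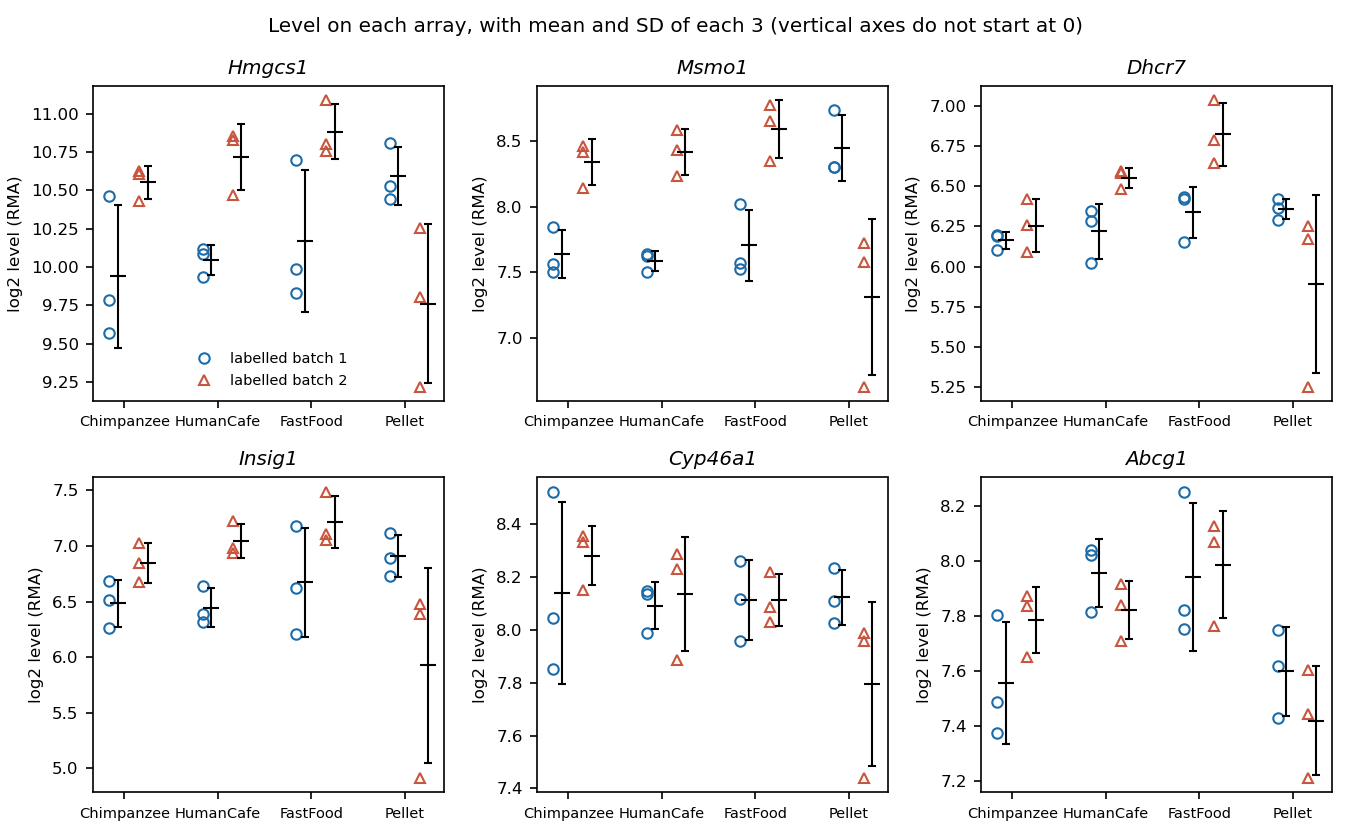
Log2 level of 6 cholesterol genes on each array by diet, for labelled batch 1 (circles) and labelled batch 2 (triangles), with the mean and SD of each 3 arrays beside them. For Hmgcs1, Msmo1 and Insig1 batch 2 lay higher on 3 diets and lower on Pellet, whereas for Abcg1 the pellet arrays (7.21 to 7.75) were low in both batches.

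The pellet diet differed from the others in opposite directions in the 2 labelled batches. Pellet minus FastFood was above 0 for 25 of the 29 genes in batch 1, with a median of 0.13, and for 2 of 29 in batch 2, with a median of -0.70, beside 66.7% and 27.3% of all features. Pellet minus Chimpanzee gave 26 of 29 in batch 1 (median 0.24) and 4 of 29 in batch 2 (median -0.53), beside 71.7% and 26% of all features. Pellet minus HumanCafe gave 24 (0.25) and 4 (-0.61), beside 70.5% and 27.4%. The array as a whole moved in the same way, with medians over all features of 0.080 and -0.44 for Pellet minus FastFood. So did the neuron markers (medians 0.41 and -1.10), the myelin markers (0.20 and -1.17), the astrocyte markers (0.34 and -1.0) and, less widely, those of endothelium (0.37 and -0.36), microglia (0.042 and -0.51) and choroid plexus (0.036 and -0.24). The 1 blood gene was above 0 in both (1.10 and 0.33). The part of these in the result was not tested.

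Msmo1, the methylsterol oxidase, had the largest swing between batches for Pellet minus FastFood. On Pellet it was at 8.30, 8.74 and 8.30 in labelled batch 1, above all 9 arrays of the other diets in that batch (7.50 to 8.02). In labelled batch 2 it was at 6.63, 7.58 and 7.72, below all 9 others (8.14 to 8.78). Pellet arrays lay above all 9 others in batch 1 for 6 of the 29 genes (Sqle, Cyp51, Msmo1, Nsdhl, Sc5d and Stard4), against 6.91% of all features. In batch 2 they lay below all 9 others for 12 genes, against 39.5% of all features, and above them for 1, Mvk, against 6.18%. The second probe set of Mvk, the mevalonate kinase, did not share its difference between Pellet and FastFood, which was 0.43 on the first and 0.00 on the second.

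The interaction of diet and batch passed the test for 19 of the 29 genes, beside 50.7% of all features, so that passing was common on the array as a whole. Among the 19 were 11 of the 17 synthesis genes, both Insig genes and 6 transport genes. The smallest adjusted p was that of Msmo1 (adjusted p = 0.00027, limma). Once batches 1 and 2 were exchanged for the pellet arrays, 0 of 29 genes and 0% of all features passed. The exchange was made with the opposite order of the pellet arrays already known from these data. Whether the labels are right was not tested. Leaving out Pellet batch 2 replicate 1 brought the median difference of the 17 synthesis genes from -0.085 to 0.11 against Chimpanzee, from -0.12 to 0.053 against HumanCafe and from -0.27 to -0.054 against FastFood.

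On the 3 other diets the labelled batches themselves differed. Of the 29 genes, 17 were lower in batch 1 than in batch 2 and 1 was higher (limma, 9 against 9 arrays), beside 40.3% of all features lower and 9.46% higher. The 17 were 10 synthesis genes, Insig1 and Insig2, and Stard4, Abca1, Apoe, Npc1 and Lrp1. The difference was -0.81 ± 0.08 for Msmo1 (adjusted p = 8.7e-07), whose batch 1 arrays (7.50 to 8.02) and batch 2 arrays (8.14 to 8.78) did not overlap. It was the 1 gene of 29 lower on every batch 1 array, where 4.77% of all features were. Hmgcs1 was at 9.57 to 10.70 in batch 1 and 10.43 to 11.09 in batch 2, which overlapped, with a difference of -0.67 ± 0.12. Its 4 probe sets above the filter gave -0.67 to -0.94. Sc5d, the sterol desaturase, gave -0.53 ± 0.09 and Insig1 gave -0.50 ± 0.11. The gene that was higher, Lss, which closes squalene epoxide into lanosterol, gave 0.29 ± 0.07 on one probe set and -0.29 ± 0.08 on another. Stard4, which carries sterols between membranes, passed narrowly (-0.28 ± 0.11, adjusted p = 0.038) and did not without any one of 8 arrays.

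On the deposited values, the only scale given here for markers, neuron, astrocyte and myelin markers were lower in batch 1 to a larger extent than the synthesis genes. Other markers were so to a smaller extent. The median difference was -0.67 over 6 neuron genes, -0.65 over 6 astrocyte genes and -0.66 over 7 oligodendrocyte and myelin genes, beside -0.25 over the 17 synthesis genes and -0.14 over all features. Of these markers, 6 of 6, 5 of 6 and 7 of 7 passed the test. It was -0.11 over 5 microglia genes (2 passed), -0.19 over 2 endothelial genes (1 passed), -0.17 over 3 choroid plexus genes (1 passed) and -0.0073 for the 1 blood gene, which did not pass. The 18S signal was higher in batch 1 on these diets, and the SD within an array was lower on average, at 1.90 beside 2.04. The lists also differed in level. In batch 2 the mean log2 level was 10.88 over the neuron, 9.32 over the astrocyte and 9.74 over the myelin genes. It was 7.18 over the synthesis, 7.32 over the microglia, 6.66 over the endothelial and 7.79 over the choroid plexus genes. The part of these in the batch difference of the cholesterol genes was not tested.

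The batch difference depended on scale. The methods name quantile normalization as a part of how the levels were made, and whether it was applied was not tested. The SD of the deposited values of probe sets differed between arrays. When these values were quantile normalized, the median over all features went from -0.14 to 0.031. Then 15 of the 29 genes passed, 8 lower and 7 higher in batch 1, beside 42.1% of all features. Of the 5829 features called 3415 were higher, against 1309 of 6880 on the deposited values. Of the 17 genes lower on the deposited values, 9 no longer passed. The 8 that did were Hmgcs1, Idi1, Sqle, Cyp51, Msmo1, Sc5d, Insig1 and Npc1. On this scale Msmo1 was at -0.51 ± 0.07, Npc1, which lets cholesterol out of lysosomes, at -0.34 ± 0.09, Sc5d at -0.33 ± 0.07, Insig1 at -0.30 ± 0.09, Cyp51 at -0.25 ± 0.08, Idi1 at -0.21 ± 0.06, Sqle at -0.19 ± 0.06 and Hmgcs1 at -0.15 ± 0.054. The 7 higher genes were Lss, Tm7sf2, Mvk, Cyp46a1, Abcg1, Scap and Srebf2. The last 4 were on the lower side on the deposited values without passing, at -0.061, -0.047, -0.055 and -0.14, and were at 0.24, 0.22, 0.21 and 0.15 after it. Apoe, Nsdhl and Lrp1 turned from lower to the higher side without passing.

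**Figure D4:**
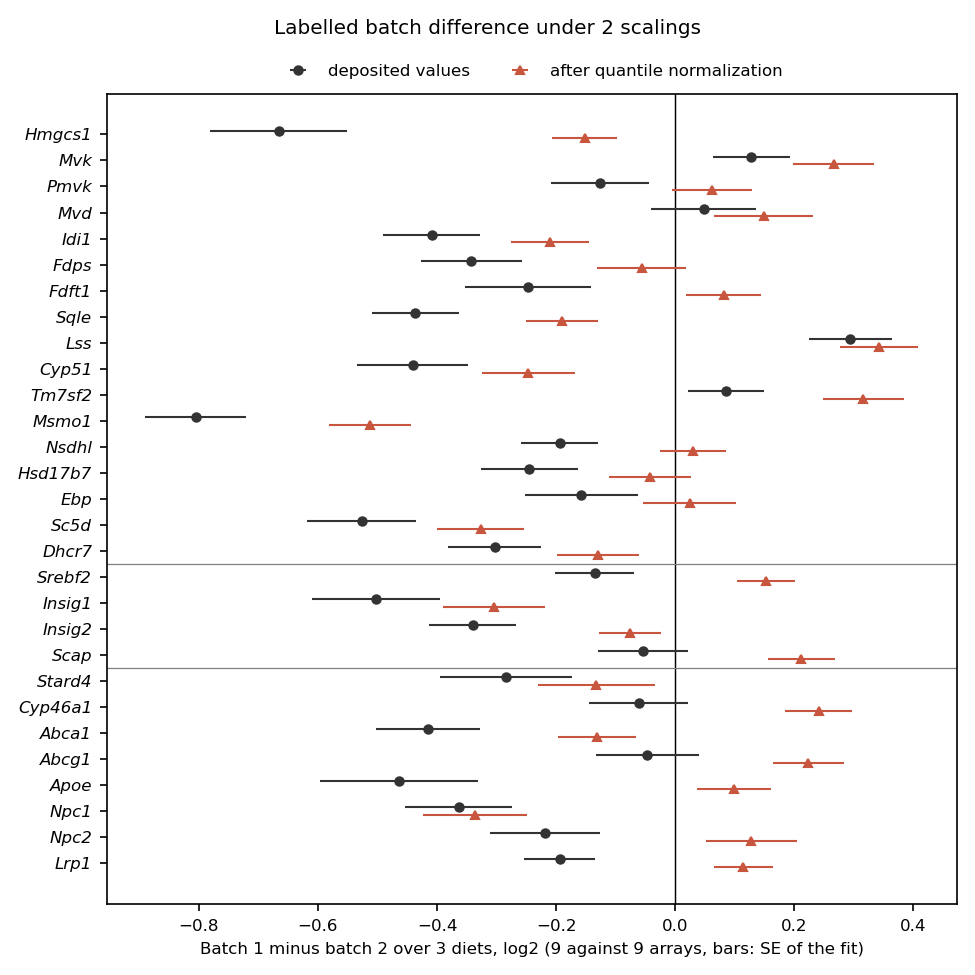
Batch 1 minus batch 2 for the 29 cholesterol genes on the log2 scale, over 9 and 9 arrays of the Chimpanzee, HumanCafe and FastFood diets with the standard error of the fit, on the deposited values (circles) and after quantile normalization (triangles). Msmo1 was at -0.81 and -0.51, and genes such as Cyp46a1 and Apoe crossed 0 from one scale to the other.

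Of 26 further genes of sterol regulation, lipoprotein uptake and oxysterol metabolism, 24 were measured. By limma 0 of 24 passed in any diet comparison. Lipa, the lysosomal lipase that frees cholesterol from its esters, was the 1 gene at an unadjusted p under 0.01 with the same sign in both batches: Pellet minus FastFood was -0.52 ± 0.14 (adjusted p = 0.23), with -0.10 in batch 1 and -0.95 in batch 2. Between batches 13 of the 24 were lower in batch 1 and 0 were higher, beside 40.3% and 9.46% of all features. They included Nceh1, which hydrolyses cholesterol esters, at -0.59 ± 0.09, Cyp7b1, an oxysterol hydroxylase, at -0.44 ± 0.09, and Mbtps2, the protease that makes the last cut in releasing the Srebf2 product, at -0.40 ± 0.10.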

How the data were processed

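The labels gave the diet, batch and number of each mouse, and all 24 brain arrays were used; the methods leave out 1 degraded pellet array that they do not name, and liver was not analysed here. The deposited log2 levels of 45101 probe sets are robust multichip averages that the authors made with “affy”. Probe sets with several genes and those with a mean under the median (4.07) were left out, and 1 probe set per gene was kept, which gave 13839 features (11645 genes).

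Levels were fitted with limma 3.58.1 in R 4.3.3 (diet and batch as terms, Benjamini-Hochberg over all features), and the batch difference was fitted on the 18 arrays of 3 diets. The script was tested on simulated data. The replicates are separate mice, and the number of arrays limits the precision. The genes and lists were chosen with earlier results of these data known. Genes were named where they passed the test, or had an unadjusted p under 0.01 in a diet comparison with the same sign in both batches, together with 10 set examples; Msmo1's levels, the second probe sets and genes whose ranges did not overlap were added after their values were seen. Alternatives changed the filter, probe sets, scaling, weights, terms, arrays and the methods' two-way test.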

Additional observations from a re-analysis of the deposited data

Results flagged for a closer look

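In each diet the highest and lowest of the 6 arrays were compared with the rest for each of the 29 genes. In 11 of 116 groups 1 array lay far from the others, by a gap to the nearest of more than 0.625 of the whole range. For independent values of 1 normal distribution this happens in about 1 in 20 groups. Here each group holds 2 batches and the 29 genes were read on the same arrays, so that the 11 cannot be judged against that rate. Of the 11, 7 were Pellet batch 2 replicate 1 as the lowest pellet array. This array was at 5.37 for Cyp51 (other pellet arrays 6.44 to 7.06), 4.66 for Sc5d (6.12 to 6.95), 5.25 for Dhcr7 (6.17 to 6.42), 4.91 for Insig1 (6.39 to 7.12), 6.05 for Insig2 (7.42 to 7.92), 7.44 for Cyp46a1 (7.96 to 8.23) and 6.26 for Abca1 (7.55 to 8.05). The other 4 were on HumanCafe. Batch 1 replicate 1 was the highest for Mvk, at 6.44 (others 5.93 to 6.12), and for Tm7sf2, a sterol reductase, at 7.47 (7.07 to 7.22). Batch 1 replicate 2 was the lowest for Pmvk, the phosphomevalonate kinase, at 6.42 (6.65 to 6.76), and batch 2 replicate 3 the lowest for Scap, at 7.68 (7.79 to 7.84).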

How the results depend on the processing

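Under the alternatives, the count of cholesterol genes called moved from 0 as follows, with the share of all features called in brackets. Array weights called 10 genes for the 4 diets (21.2%), 1 for the human diets against Chimpanzee (0.419%), 1 for FastFood minus Chimpanzee (1.04%), 10 for Pellet minus Chimpanzee (18.5%), 12 for Pellet minus HumanCafe (25.7%) and 4 for Pellet minus FastFood (8.27%). In labelled batch 2 alone 16 were called for the 4 diets (43.2%), 15 for Pellet minus Chimpanzee (53%), 19 for Pellet minus HumanCafe (50.4%) and 23 for Pellet minus FastFood (58.7%), and in labelled batch 1 alone 2 for Pellet minus HumanCafe (2.94%). With the pellet batch labels exchanged 3 were called for Pellet minus FastFood (12.3%), and 1 (5.14%) when Pellet batch 2 replicate 1 was left out as well, an alternative chosen after seeing the data. The interaction went from 19 (50.7%) to 9 (24.8%) after quantile normalization and to 0 with the pellet labels exchanged, with that array (0%) or without it (0.00723%). The cause was not tested.

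The median of the 17 synthesis genes for Pellet minus Chimpanzee was 0.25 with array weights, 0.27 in batch 1 and -0.37 in batch 2. For Pellet minus HumanCafe it was 0.23, 0.25 and -0.61, and for Pellet minus FastFood 0.16, 0.18 and -0.70, with -0.026 after quantile normalization. That of the batch difference went to -0.042 after quantile normalization, which turned Nsdhl to 0.029, Apoe to 0.099 and Lrp1 to 0.11.

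Leaving out 1 array at a time called 0 genes in every diet comparison, 14 to 22 for the interaction (14 without Pellet batch 1 replicate 2) and 17 to 21 for batch. The medians then ran from -0.18 (without Pellet batch 1 replicate 2) to 0.11 for Pellet minus Chimpanzee, -0.23 to 0.053 for Pellet minus HumanCafe, -0.39 to -0.054 for Pellet minus FastFood (the higher values without Pellet batch 2 replicate 1), 0.066 to 0.20 for FastFood minus Chimpanzee, 0.075 to 0.20 for FastFood against the mean of the other 2, 0.075 to 0.19 for FastFood minus HumanCafe, 0.011 to 0.077 for HumanCafe minus Chimpanzee and 0.037 to 0.13 for the human diets against Chimpanzee. For batch they ran from -0.32 to -0.21. The batch call of Stard4 ended (adjusted p = 0.053 to 0.089, limma) without Chimpanzee batch 1 replicate 2 or batch 2 replicate 3, without FastFood batch 1 replicate 1 or 2 or batch 2 replicate 1 or 3, or without HumanCafe replicate 1 of either batch, and that of Lss ended when its probe sets were averaged.

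With the replicate block 0 genes were called in every diet comparison. Same-numbered arrays correlated at -0.51 to 0.48 over 36 pairs, with 14 over 0.1. These values lie on both sides of 0 and do not decide whether the numbers pair the arrays. The methods spread littermates evenly over the diet groups but do not link them to these numbers. Whether same-numbered mice were littermates was not tested. The methods' two-way test called 0 genes after Benjamini-Hochberg adjustment. The other 409 counts and 331 medians recomputed moved by less than 1.5 times or by less than the spread between arrays (SD 0.18).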
